A study of Mus musculus with 12 samples.

Results

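Myh7, Acta1, Nppb, Ankrd1, Xirp2 and Rcan1 are genes that the mouse heart uses before birth or raises when its wall is loaded. They were taken by gene symbol from the 55885 genes with values, and all 6 were among the 13815 genes tested. RNA of heart tissue was sequenced in 12 male mice, C57BL/6 in the labels and C57BL/6J in the methods, with 3 hearts in each of 4 groups, out of 6 mice a group in the study. The methods give 8 weeks as the age of the mice used, without saying whether at the first injection or at collection. The Saline group was wild type and received no drug (the labels call it untreated, the methods describe saline). The CDDP group was wild type and received cisplatin, a platinum drug against cancer, at 6 mg/kg into the peritoneum on days 1, 8 and 15. The STING-/- group consisted of Tmem173-/- mice, which lack Sting1, the adaptor that signals from cytosolic DNA sensing, and received no cisplatin, and the STING-/-+CDDP group combined the same genotype with the same 3 injections. All hearts were collected on day 22. Wild-type and STING-/- mice came from different suppliers, so genotype and source cannot be told apart, and the chambers that went into each heart sample are not given in the sources used here. Values are in TPM, a transcript abundance scaled by gene length and to the same sum in each heart, from which the number of reads cannot be told. From 19680 to 21024 genes had a value above 0 per heart. Replicates are different mice, and p-values measure the spread between them.

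In mice, ventricular muscle changes from beta to alpha myosin heavy chain and to cardiac actin around birth, and load on the adult wall can bring the fetal isoforms back. Stretched cardiomyocytes also release natriuretic peptides and raise ankyrin repeat proteins bound to titin, the molecular spring of the sarcomere. Calcineurin, a phosphatase that responds to calcium, is a further arm of the hypertrophic response and switches on its own inhibitor, Rcan1.

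The 6 genes did not move together. With cisplatin, averaged over both genotypes, Nppb and Xirp2 fell and Myh7 rose. With each of the 12 hearts left out in turn, Nppb and Xirp2 kept this call and Myh7 lost it 7 times. The median Nppb TPM was 513 in Saline and 82.1 in CDDP hearts, and 165 in STING-/- and 31.9 in STING-/-+CDDP hearts. Median Xirp2 TPM went from 30.8 to 16.6 in the wild type and from 32.9 to 23.6 in STING-/- mice. Median Myh7 TPM went from 1190.2 to 1859 in the wild type and from 45.0 to 390.35 in STING-/- mice. The largest difference among the 6 genes was between genotypes: the median Myh7 TPM was 1190.2 in Saline and 45.0 in STING-/- hearts. Acta1, Ankrd1 and Rcan1 passed the test in no comparison. In bulk tissue, fewer cells of a type and less RNA per cell cannot be told apart, which holds for each of these values.

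Fold changes are differences in log2(TPM + 1), which understates changes of low genes, and a gene passed at a limma adjusted p under 0.05 (Benjamini-Hochberg over the 13815 genes). In the average over genotypes, 1 member passed higher (Myh7) and 2 lower (Nppb, Xirp2), where 7.28% of the tested genes passed higher, 12.6% lower and 19.8% in either direction. In CDDP against Saline 1 member (Xirp2) passed, lower, where 8.52% of tested genes passed higher, 10.4% lower and 18.9% in either direction. In STING-/-+CDDP against STING-/- 0 members passed, where 0.253% of tested genes passed higher, 0.680% lower and 0.934% in either direction. At an unadjusted p under 0.05 there were 3, Myh7, Nppb and Xirp2, and 1860 of the 13815 genes. In STING-/- against Saline 1 member (Myh7) passed, lower, where 0.0434% of tested genes did so and 0.0290% passed higher, 0.0724% in all, and Myh7 had the 4th smallest p of all genes tested. In STING-/-+CDDP against CDDP 0 members passed, where 0.362% of tested genes passed higher, 0.854% lower and 1.22% in either direction, and at an unadjusted p under 0.05 there were 4 members, Myh7, Ankrd1, Xirp2 and Rcan1, and 2737 of the 13815 genes. The average genotype effect, a contrast added after the data were seen, again had 1 member, Myh7, among the 0.0869% of tested genes that passed lower, and 0.0941% passed higher (0.181% in all). The interaction of cisplatin and genotype passed in 0 members and in 0.00724% of tested genes, which is 1 gene. At an unadjusted p under 0.05 the interaction had 1 member, Myh7, and 1615 of the 13815 genes. The median change of all tested genes was -0.11 in STING-/-+CDDP against STING-/- and -0.01 after rescaling by the median of ratios. The same rescaling moved the share of higher genes among those that passed from 27.1% to 47.1% there, from 36.7% to 49.2% in the cisplatin average and from 29.8% to 41.8% in STING-/-+CDDP against CDDP.

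**Figure D1:**
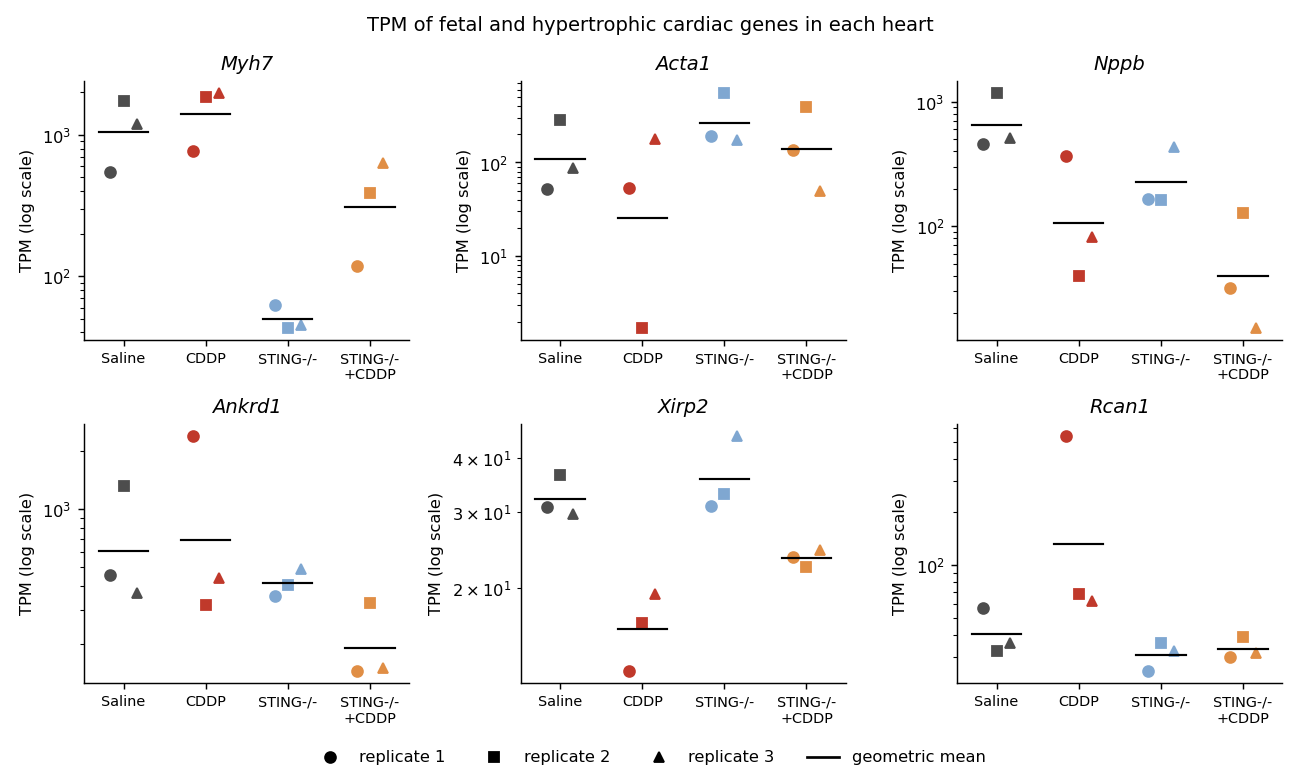
TPM of the 6 genes in each of the 12 hearts, on a log scale, by group, with a bar at the geometric mean and a marker shape for each replicate number. Myh7 lies below 63 TPM in the 3 STING-/- hearts and at 550.15 or more in all 6 wild-type hearts, and Rcan1 stands at 540 TPM in CDDP replicate 1.

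The tissue label was checked first. All 10 cardiomyocyte markers were above 0 in every heart, with a summed TPM from 22851 in CDDP replicate 1 to 46605 in STING-/- replicate 3. Sting1, the deleted gene, had a TPM of 12.3, 6.59 and 6.50 in Saline and 3.82, 5.96 and 2.87 in STING-/- hearts, in the order of the replicate numbers. It was 22.1, 5.62 and 8.81 in CDDP and 4.26, 4.67 and 3.37 in STING-/-+CDDP hearts. Sting1 was thus lower in both STING-/- groups without overlap (-0.85, SE 0.40, limma adjusted p = 1, against Saline and -1.18, limma adjusted p = 0.147, against CDDP) but was not at 0. In these comparisons 4.88% (against Saline) and 15.6% (against CDDP) of tested genes were lower without overlap as well. A value per gene does not show whether a transcript is intact.

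The hearts differed in atrial content, within groups as well as between them. The summed TPM of 10 atrial markers was 329, 39725 and 360.1 with Saline and 3932, 959 and 15288 with CDDP. In STING-/- hearts it was 3161, 13044 and 9307, and in STING-/-+CDDP hearts 9181, 982 and 375. Saline replicate 2 thus stood apart from both other Saline hearts. Nppa, atrial natriuretic factor and the most abundant of the 10, ran from 210.3 to 25687 TPM, and Bmp10 was at 0 in 4 hearts, Saline replicates 1 and 3 among them. None of the 10 atrial and 6 ventricular markers passed in any comparison, although the median change of the atrial list in STING-/- against Saline was 2.70. The fits of the 6 genes are therefore also given with the mean log2(TPM + 1) of 9 atrial markers (Nppa left out) as a covariate where this alters a call or a direction; no values with it are given for the shares and the other genes named below. Skeletal muscle would bring Acta1 and Myh7 from outside the heart. Its 11 markers summed to between 8.56 and 52.9 TPM, the latter in Saline replicate 2, where the fast myosin light chain gene Mylpf stood at 20.6 and the fast troponin gene Tnni2 at 18.2. Mybpc2, the most abundant over all hearts, reached 13.5, and the fast myosins Myh1, Myh2 and Myh4 did not exceed 0.11.

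**Figure D2:**
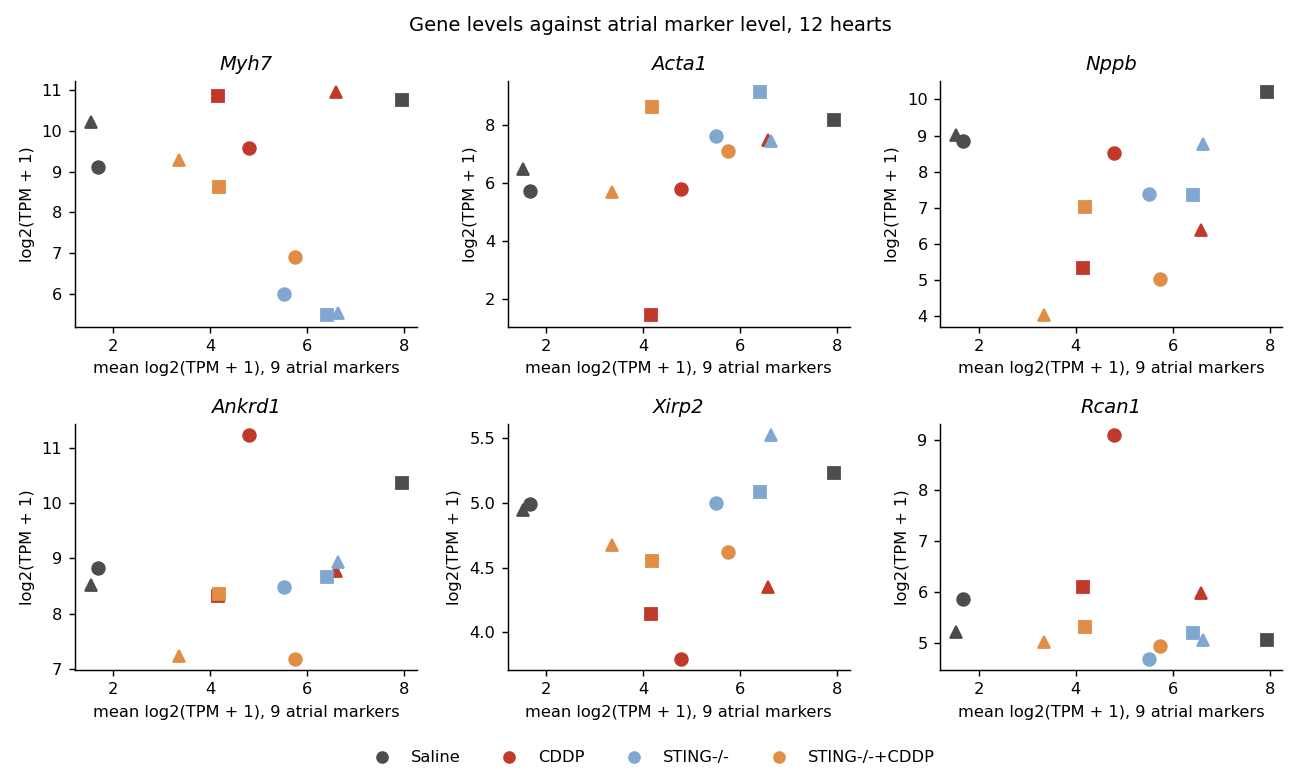
Each panel sets a gene's log2(TPM + 1) against the mean log2(TPM + 1) of 9 atrial markers in the 12 hearts, coloured by group. The 3 STING-/- hearts lie between 5.51 and 6.63 on the atrial axis and have low Myh7. In the same range are STING-/-+CDDP replicate 1, at 5.74, with a Myh7 TPM of 118, and CDDP replicate 3, at 6.58, with high Myh7. Saline replicate 2 above that range, at 7.94, also has high Myh7.

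Myh7 encodes beta myosin heavy chain, the slow motor that dominates the fetal mouse ventricle. It lies on chromosome 14 of GRCm38 from 54970684 to 54994626 on the minus strand. Its promoter is shown because Myh7 had the largest difference between groups; it is the 250 bases before the first RefSeq start, chr14:54994627-54994876, minus strand, GRCm38.p6.
Myh7: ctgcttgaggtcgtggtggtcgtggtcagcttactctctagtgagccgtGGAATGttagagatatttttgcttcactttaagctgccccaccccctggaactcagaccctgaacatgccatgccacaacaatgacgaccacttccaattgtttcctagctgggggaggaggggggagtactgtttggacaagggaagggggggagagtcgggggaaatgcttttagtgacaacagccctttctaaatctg
The capitals mark an MCAT element (GGAATG, searched on both strands), the site that TEAD factors bind in muscle genes, 201 bases before the start. The element occurred in 12.6% of 32841 RefSeq promoter windows of the same length. The window before a second RefSeq start held none of the 5 motifs searched in all promoters here. A match is a description of the letters and not a measured site.

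Myh7 TPM was 550.15, 1742 and 1190.2 with Saline and 769.55, 1859 and 1988 with CDDP. It was 63.0, 43.1 and 45.0 for STING-/- and 118, 390.35 and 628 for STING-/-+CDDP. All 3 STING-/- hearts lay below all other hearts, and STING-/-+CDDP hearts lay between them and the CDDP hearts, with the single overlap that STING-/-+CDDP replicate 3 exceeded Saline replicate 1. STING-/-+CDDP against CDDP gave -2.20 (SE 0.59, limma adjusted p = 0.0853), lower without overlap as in 15.6% of tested genes. The order of the group means was CDDP, Saline, STING-/-+CDDP and STING-/-, and CDDP and Saline did not differ beyond their spread. STING-/- against Saline gave a log2 fold change of -4.37 (SE 0.59, limma adjusted p = 0.0290), 20.7-fold lower, without overlap. Without overlap were also 4.88% of tested genes in the lower and 2.76% in the higher direction. The atrial covariate left -4.51 with an adjusted p of 0.0697. The adjusted p was between 0.0539 and 0.160, with changes from -4.54 to -4.00, without Saline replicate 2 or 3, without STING-/- replicate 1, 2 or 3, or without STING-/-+CDDP replicate 2. Averaged over both treatments, the genotype difference was -3.28 (SE 0.41, limma adjusted p = 0.00723), and it passed with each of the 12 hearts left out in turn (adjusted p up to 0.0346) but not without the filter on low genes (adjusted p = 0.0628).

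With cisplatin, Myh7 rose by 1.52 in the average over genotypes (SE 0.41, limma adjusted p = 0.0249). The change was 0.44 (SE 0.59, limma adjusted p = 0.643) in wild-type hearts and 2.61 (SE 0.59, limma adjusted p = 0.0670) in STING-/- hearts, the latter 6.09-fold and without overlap, which 7.28% of tested genes had in the higher direction. The difference between those effects was 2.17 (SE 0.83), with an unadjusted p of 0.0232 and a limma adjusted p of 0.378. The average lost its call, at adjusted p from 0.0514 to 0.0592, without Saline replicate 1, CDDP replicate 2 or 3, STING-/- replicate 2 or 3, or STING-/-+CDDP replicate 2 or 3. Of the 100-base windows in Myh7 transcripts 7.71% were identical in Myh6, and Mhrt, an RNA antisense to Myh7, had 6.19 to 44.2 TPM; the strand of the libraries is not given in the sources used here, so antisense reads cannot be told apart.

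Myh6, the alpha myosin heavy chain of the adult mouse heart, was the more abundant isoform in every heart. Its TPM ran from 4293 to 6157 in Saline, from 3006 to 6308 in CDDP, from 5676 to 11098 in STING-/- and from 6247 to 7130 in STING-/-+CDDP hearts, and it passed in no comparison. Myh7 made up 8.39%, 22.05% and 21.7% of the summed TPM of Myh6 and Myh7 in Saline hearts and 20.4%, 22.9% and 24.0% in CDDP hearts. In STING-/- hearts this share was 1.10%, 0.653% and 0.404%, and in STING-/-+CDDP hearts 1.79%, 5.19% and 9.14%. The share is a ratio inside each heart. Within treatments it was 16.9 percentage points lower in STING-/- mice, where 0.005 is the smallest p that the exact permutation test of 12 hearts can give and the value it gave (p = 0.005, adjusted p = 0.09 over 18 tests, a test added after the data were seen). Within genotypes it was 4.85 percentage points higher with cisplatin (exact permutation p = 0.045, adjusted p = 0.36). The exact test of 3 hearts against 3 cannot go below 0.1. It reached this p for STING-/- against Saline (-16.7 points), for STING-/-+CDDP against CDDP (-17.0 points) and for STING-/-+CDDP against STING-/- (4.66 points). With a heart left out the last difference ran from 2.77 to 6.45 points.

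**Figure D3:**
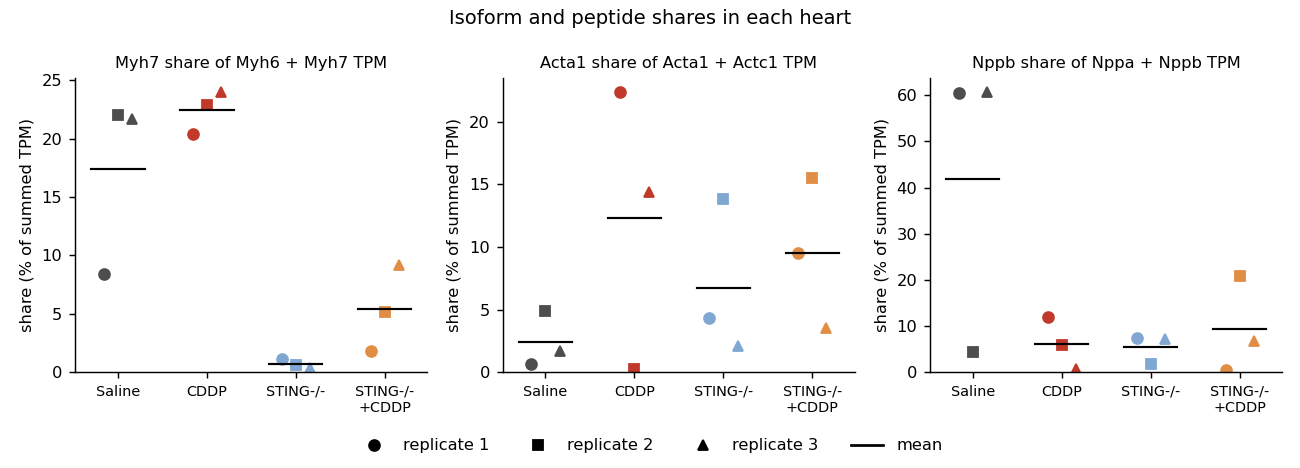
Share of Myh7 in Myh6 + Myh7, of Acta1 in Acta1 + Actc1 and of Nppb in Nppa + Nppb, in percent of summed TPM, for each heart, with a bar at the group mean. The Myh7 share lies between 8.39% and 24.0% in wild-type hearts and between 0.404% and 9.14% in STING-/- hearts, while the Acta1 and Nppb shares of the groups overlap.

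Acta1 (chromosome 8, 123891769 to 123894751, minus strand) encodes skeletal alpha actin, the fetal partner of cardiac actin. Its promoter holds the CArG box bound by SRF 73 bases before the start and an MCAT element on the opposite strand 46 bases before it, both in capitals in the window chr8:123894776-123895025 (GRCm38.p6, minus strand, RefSeq); a CArG box was found in 1.47% of all windows. It is shown as the classical load-responsive actin promoter.
Acta1: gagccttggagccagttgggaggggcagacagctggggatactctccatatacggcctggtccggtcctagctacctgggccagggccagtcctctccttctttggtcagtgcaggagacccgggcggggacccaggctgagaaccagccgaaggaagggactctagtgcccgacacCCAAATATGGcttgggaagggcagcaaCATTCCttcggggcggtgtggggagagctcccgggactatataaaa
Acta1 TPM was 51.6, 284 and 88.0 in Saline hearts and 53.8, 1.72 and 178.9 in CDDP hearts. It was 192, 554 and 172 in STING-/- hearts and 136, 394 and 49.98 in STING-/-+CDDP hearts. The groups overlapped in every comparison, and CDDP replicate 2 lay far below all other hearts. Gm20388, annotated on the opposite strand over Acta1, had 8.20 to 17.9 TPM. The change with cisplatin was -1.40 on average (SE 0.91, limma adjusted p = 0.313), with a 95% interval from -3.39 to 0.59, and it was -0.53 without CDDP replicate 2 and -2.05 without CDDP replicate 3. In the wild type the change of -1.88 (SE 1.29) became -0.15 and -3.17 without the same hearts, and -1.19 without Saline replicate 2. The order of the means of log2(TPM + 1) was STING-/-, STING-/-+CDDP, Saline and CDDP, and no neighbours differed beyond their spread. The atrial covariate moved STING-/- against Saline from 1.27 to 0.026 and STING-/-+CDDP against STING-/- from -0.92 to -0.035. It moved CDDP against Saline from -1.88 to -2.61.

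Actc1, cardiac alpha actin, fell with cisplatin. Its TPM was 7824, 5559 and 5036 in Saline hearts and 187, 681 and 1067 in CDDP hearts. In STING-/- hearts it was 4254, 3444 and 8112, and in STING-/-+CDDP hearts 1282, 2150 and 1370. Both treated groups lay below their controls without overlap, as 17.1% and 16.9% of tested genes did, with a log2 fold change of -3.55 in the wild type (SE 0.53, limma adjusted p = 0.00181) and -2.60 in the average (SE 0.38, limma adjusted p = 0.00108). Acta1 made up 0.655%, 4.86% and 1.72% of the summed actin TPM in Saline hearts and 22.4%, 0.252% and 14.4% in CDDP hearts, so that this share was above all Saline hearts in 2 CDDP hearts and the lowest of all hearts in the other. It did not pass the exact permutation test (9.91 percentage points, p = 0.4, and over both genotypes 6.34 points, p = 0.165). With a heart left out these differences ran from 4.89 to 15.9 and from 3.83 to 9.35 points. Of the 12 contractile isoform partners, 1 rose in the cisplatin average, Tnnt2, cardiac troponin T (0.40), and 3 fell, Actc1, the smooth muscle actin Acta2 (-1.39) and the tropomyosin Tpm1 (-0.38). Of all tested genes 7.28% rose and 12.6% fell in that average. The median change of the 12 was -0.27, against -0.05 for all tested genes. The fetal troponin Tnni1 did not exceed 5.34 TPM in any heart.

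Nppb (chromosome 4, 147985788 to 147987205, plus strand) encodes B-type natriuretic peptide, which stretched cardiomyocytes secrete and which makes the kidney release sodium and vessels relax. Its promoter, chr4:147985650-147985899 (GRCm38.p6, plus strand, RefSeq), is shown because Nppb had the largest fall with cisplatin in the average among the 6 genes.
Nppb: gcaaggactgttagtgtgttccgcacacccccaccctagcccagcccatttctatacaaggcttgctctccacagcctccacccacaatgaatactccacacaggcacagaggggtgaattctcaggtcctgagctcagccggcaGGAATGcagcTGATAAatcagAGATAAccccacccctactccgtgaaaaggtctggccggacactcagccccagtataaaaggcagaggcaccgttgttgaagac
The capitals mark an MCAT element 105 bases and GATA sites 95 and 84 bases before the start (the letters AGATAA on either strand, where the first letter may also be T and the last G, which GATA factors such as Gata4 bind). A GATA site was present in 26.5% of all windows.

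Nppb TPM was 456, 1175 and 513 in Saline hearts and 363, 39.6 and 82.1 in CDDP hearts. It was 165, 162 and 432 in STING-/- hearts and 31.9, 128 and 15.3 in STING-/-+CDDP hearts. Every treated heart lay below every control heart of its genotype, and Saline replicate 2 and STING-/-+CDDP replicate 3 were the extremes of all 12. Lower without overlap were also 17.1% of tested genes in the wild type and 16.9% in STING-/- mice. Averaged over genotypes, Nppb fell by 2.54 on the log2 scale (SE 0.60, limma adjusted p = 0.0133), 5.80-fold, and the change was close in size in the wild type (-2.60, SE 0.84, limma adjusted p = 0.0514) and in STING-/- hearts (-2.47, SE 0.84, limma adjusted p = 0.212). The difference between those effects was 0.14, with a 95% interval from -2.48 to 2.75. The average passed with the atrial covariate (-2.51, adjusted p = 0.0115), without Saline replicate 2 (-2.32, adjusted p = 0.0254) and without every other heart (adjusted p up to 0.0338). In the wild type alone the call depended on the setting: the limma adjusted p was 0.0371 with the atrial covariate and ran from 0.0342 to 0.122 over the other settings. With a heart left out it ran from 0.0157 without CDDP replicate 1 to 0.152 without CDDP replicate 2, was 0.125 without Saline replicate 2 (-2.18), and stayed above the threshold for 9 of the 12 hearts. STING-/- hearts lay below Saline hearts without overlap, as in 4.88% of tested genes, with a change of -1.52 (SE 0.84, unadjusted p = 0.0983, limma adjusted p = 1). The order of the group means was Saline, STING-/-, CDDP and STING-/-+CDDP, and each group from STING-/- downward overlapped the next.

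Nppa, the other natriuretic peptide of the heart, is mainly atrial in adults, and it did not pass with cisplatin (average change -0.78, SE 1.19, limma adjusted p = 0.692). Its TPM was 299.65, 25687 and 333.1 in Saline and 2679.96, 639.98 and 10454 in CDDP hearts. Nppb made up 60.4% and 60.6% of the summed peptide TPM in Saline replicates 1 and 3, the hearts with the lowest summed atrial markers, and 4.37% in Saline replicate 2. It made up 11.9%, 5.83% and 0.779% in CDDP hearts, and this share passed in none of its 6 exact permutation tests (p = 0.3 for CDDP against Saline). Of 11 further genes of the natriuretic system that were tested, Nppa included, 3 fell in the cisplatin average and 0 rose. They were Pcsk6, a protease that activates corin (-1.40, SE 0.27), Prkg1, the kinase that responds to cyclic GMP (-1.01, SE 0.17), and Mme, the peptidase neprilysin that degrades the peptides (-0.65, SE 0.16). Prkg1 and Mme were low, at no more than 3.83 and 2.63 TPM in any heart. The convertase Corin had a change of 0.17 and the receptor Npr1 of -0.03, both smaller than their SE of 0.27 and 0.17. Among all tested genes 12.6% fell and 7.28% rose in the cisplatin average. The median change of the list was -0.28.

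Xirp2 (chromosome 2, 67446002 to 67526614, plus strand) encodes a Xin repeat protein that binds actin at the intercalated disc and the Z-disc and is known as a target of MEF2. Its promoter, chr2:67445752-67446001 (GRCm38.p6, plus strand, RefSeq), is shown for that reason.
Xirp2: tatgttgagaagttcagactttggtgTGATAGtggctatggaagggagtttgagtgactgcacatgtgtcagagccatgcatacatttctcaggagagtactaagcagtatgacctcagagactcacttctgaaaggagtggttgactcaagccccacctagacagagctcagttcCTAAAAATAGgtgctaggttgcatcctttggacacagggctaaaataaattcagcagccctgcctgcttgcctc
The capitals mark a MEF2 site 74 bases and a GATA site 224 bases before the start, and 1.69% of all windows held a MEF2 site. Xirp2 TPM was 30.8, 36.4 and 29.7 in Saline hearts and 12.9, 16.6 and 19.4 in CDDP hearts. It was 31.0, 32.9 and 44.8 in STING-/- hearts and 23.6, 22.4 and 24.5 in STING-/-+CDDP hearts. The groups formed 3 levels without overlap between them, with Saline and STING-/- hearts high, STING-/-+CDDP hearts in the middle and CDDP hearts low. Lower without overlap were also 17.1% of tested genes in CDDP against Saline and 16.9% in STING-/-+CDDP against STING-/-. Xirp2 had the smallest SE of the 6 genes and fell by 0.96 in the wild type (SE 0.18, limma adjusted p = 0.00499), 1.94-fold, and by 0.77 in the average (SE 0.13, limma adjusted p = 0.00203). The change in STING-/- hearts was -0.59 (SE 0.18, limma adjusted p = 0.158). The difference between both effects was 0.37 (SE 0.25, limma adjusted p = 0.588) and ran from 0.22 to 0.53 with a heart left out. STING-/-+CDDP against CDDP was 0.52 (SE 0.18, limma adjusted p = 0.147), higher without overlap as in 7.12% of tested genes. Xirp2 passed in the wild type and in the average under every alternative tried and with each of the 12 hearts left out in turn, with changes from -1.08 to -0.81 and from -0.83 to -0.69 without a heart. Its paralog Xirp1 was between 24.4 and 49.7 TPM in all hearts, with an average change of 0.07 (SE 0.19).

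Ankrd1 (chromosome 19, 36111961 to 36120099, minus strand) encodes the cardiac ankyrin repeat protein, which sits on titin and also enters the nucleus. Its promoter, chr19:36119845-36120094 (GRCm38.p6, minus strand, RefSeq), held a pair of MCAT elements, the farther one 210 bases, and a GATA site on the opposite strand 47 bases before the start, in capitals, and is shown beside that of Nppb as the other promoter with both motifs.
Ankrd1: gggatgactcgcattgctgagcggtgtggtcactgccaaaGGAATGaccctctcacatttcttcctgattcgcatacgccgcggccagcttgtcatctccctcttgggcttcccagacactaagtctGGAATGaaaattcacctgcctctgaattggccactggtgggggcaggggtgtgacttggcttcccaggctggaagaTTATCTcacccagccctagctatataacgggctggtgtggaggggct
Ankrd1 TPM was 455, 1324 and 366 in Saline hearts and 2389, 319 and 437 in CDDP hearts. It was 356, 403 and 487 in STING-/- hearts and 145, 326 and 149 in STING-/-+CDDP hearts. CDDP replicate 1 was the highest heart and Saline replicate 2 the second, and only the STING-/-+CDDP hearts lay apart from their controls, lower without overlap as in 16.9% of tested genes. The change was 0.20 in the wild type (SE 0.68, limma adjusted p = 0.866), -0.09 with the atrial covariate and -0.69 without CDDP replicate 1. In STING-/- hearts it was -1.10 (SE 0.68, limma adjusted p = 0.517), and STING-/-+CDDP against CDDP gave -1.85 (SE 0.68, limma adjusted p = 0.165), which became -0.96 without CDDP replicate 1. The order of the means of log2(TPM + 1) was CDDP, Saline, STING-/- and STING-/-+CDDP, and CDDP, Saline and STING-/- hearts overlapped.

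Around Ankrd1 and Xirp2, 22 genes of titin, the Z-disc and the intercalated disc were tested. In the cisplatin average 7.28% of all tested genes rose and 12.6% fell. Of the 22 genes 3 rose in it, the intermediate filament gene Des (0.90, SE 0.09), the co-chaperone Bag3 (0.49, SE 0.14) and the small heat shock gene Hspb7 (0.38, SE 0.12). The 3 that fell were Fhl2, a LIM protein bound to titin (-1.56, SE 0.20), the Z-disc gene Synpo2l (-1.37, SE 0.23) and the actin-binding Nexn (-0.37, SE 0.11). Ankrd2, another ankyrin repeat gene, was at 0.11, 0 and 0.19 TPM in Saline and 5.11, 0.53 and 1.32 TPM in CDDP hearts. It reached a TPM of 1 only in CDDP replicates 1 and 3 and STING-/-+CDDP replicate 2. Treated hearts alone thus carried it past the filter, so nothing is drawn from its change in CDDP against Saline (1.35, SE 0.40). Des went from between 476 and 566 TPM in Saline to between 1082 and 1241 TPM in CDDP hearts, and Fhl2 from between 749 and 1337 to between 182 and 393. Des was also the gene of this list that passed in STING-/- mice (0.64, SE 0.12, limma adjusted p = 0.0362). The muscle LIM protein gene Csrp3 had an average change of -0.16 (SE 0.26) and Ankrd23, the ankyrin repeat relative of Ankrd1, of -0.15 (SE 0.31). The median of the list, -0.03, was near that of all tested genes.

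Rcan1 (chromosome 16, 92391953 to 92470867, minus strand) encodes a protein that binds and inhibits calcineurin. Its TPM was 57.2, 32.4 and 36.2 in Saline hearts and 540.4, 68.1 and 62.6 in CDDP hearts. It was 25.0, 36.0 and 32.2 in STING-/- hearts and 29.9, 39.0 and 31.6 in STING-/-+CDDP hearts. The CDDP hearts lay above all 9 others, with CDDP replicate 1 far above both other CDDP hearts. CDDP against Saline gave 1.68 (SE 0.63, limma adjusted p = 0.0840), higher without overlap as in 14.9% of tested genes, and 0.67 (limma adjusted p = 0.0834) without CDDP replicate 1. The change in STING-/- hearts was 0.11 (SE 0.63, limma adjusted p = 0.964; -0.06 with the atrial covariate), the difference between both effects -1.57 (SE 0.89, limma adjusted p = 0.510) and STING-/-+CDDP against CDDP -1.96 (SE 0.63, limma adjusted p = 0.131), lower without overlap as in 15.6% of tested genes. Without CDDP replicate 1 the difference between both effects was -0.56 and STING-/-+CDDP against CDDP was -0.95. The order of the means of log2(TPM + 1) was CDDP, Saline, STING-/-+CDDP and STING-/-, and the last 3 overlapped. Rcan1 starts from several promoters, and the downstream start, which NFAT is known to drive, had 2 NFAT core motifs (GGAAAA) 228 and 193 bases before it and the upstream start none, where 20.4% of all windows held the motif. A TPM per gene cannot show which start was used.

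Of 20 other genes tested in the calcineurin and NFAT list, 0 rose and 5 fell in the cisplatin average. Among them were Nfatc2, an NFAT factor (-0.73, SE 0.17), Mef2c, a MEF2 factor (-0.61, SE 0.16), and the calmodulin gene Calm3 (-0.50, SE 0.11). In that average 7.28% of all tested genes rose and 12.6% fell. The median change of the list was -0.15, against -0.05 for all tested genes. Rcan2, the paralog of Rcan1, had a change of -0.28 (SE 0.13, limma adjusted p = 0.153). Immediate-early genes, which respond to stress, injury and handling within minutes, were high in the same group as Rcan1: 11 of 19 tested rose in CDDP against Saline and 0 fell, led by Junb (2.46, SE 0.35), Egr1 (2.24, SE 0.45), Maff (2.03, SE 0.30) and Nr4a1 (1.85, SE 0.41). In that comparison 8.52% of all tested genes rose and 10.4% fell. Fosb, 1 of the 11, was at 0.70, 0.18 and 0.09 TPM in Saline and 2.31, 1.93 and 1.51 TPM in CDDP hearts. Only treated hearts carried it past the filter, so nothing is drawn from its change. The summed TPM of the immediate-early genes was 379.85, 465 and 313 in Saline and 974, 632 and 904 in CDDP hearts. In STING-/-+CDDP against CDDP 3 of them fell, Nr4a1 (-2.55, SE 0.41), Egr1 (-2.18, SE 0.45) and Btg2 (-1.48, SE 0.24), where 0.854% of all tested genes fell. Genes that glucocorticoids induce, such as Mt2 (3.89, SE 0.81), Mt1 (2.96, SE 0.44), Fkbp5 (2.55, SE 0.70) and Cdkn1a (2.17, SE 0.26), also rose in CDDP against Saline, 6 of 9 in all. In the cisplatin average 5 of the 9 rose. In STING-/-+CDDP against STING-/-, where Rcan1 changed by 0.11, 1 of the 9 rose, Cdkn1a, and 0.253% of all tested genes. The summed TPM of the 9, with Mt1 the most abundant, was 1760, 2198 and 1585 in STING-/- hearts. It was 4234, 3792 and 4337 in STING-/-+CDDP hearts. Fkbp5 TPM was 2.76, 39.7 and 34.3 in Saline and 72.1, 107 and 137 in CDDP hearts, so Saline replicate 1 stood far below the other controls. The part of immediate-early and glucocorticoid-induced genes in the Rcan1 values was not tested.

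Factors that are known to act on promoters of this kind were also listed. Of 15 genes of the YAP, TEAD and SRF list, Tead3, a TEAD factor (0.52, SE 0.16), rose and Mrtfa, a coactivator of SRF (-0.48, SE 0.12), fell in the cisplatin average. Across all tested genes 7.28% rose and 12.6% fell in that average. In CDDP against Saline, Srf also fell (-0.69, SE 0.20, limma adjusted p = 0.0323). Ccn2, a target of YAP and TEAD and the most abundant of the list, was between 72.2 and 548 TPM in all hearts and had an average change of 0.17 (SE 0.43). Of 7 cardiac transcription factors 2 fell, Nkx2-5 (-0.62, SE 0.15) and Mef2c. Nkx2-5 TPM was 42.8, 57.6 and 48.6 in Saline and 24.5, 33.9 and 38.02 in CDDP hearts, and it was 27.5, 42.3 and 44.0 in STING-/- and 25.7, 25.6 and 21.3 in STING-/-+CDDP hearts. In both genotypes the treated hearts lay below their controls without overlap, as in 17.1% (wild type) and 16.9% (STING-/-) of tested genes.

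**Figure D4:**
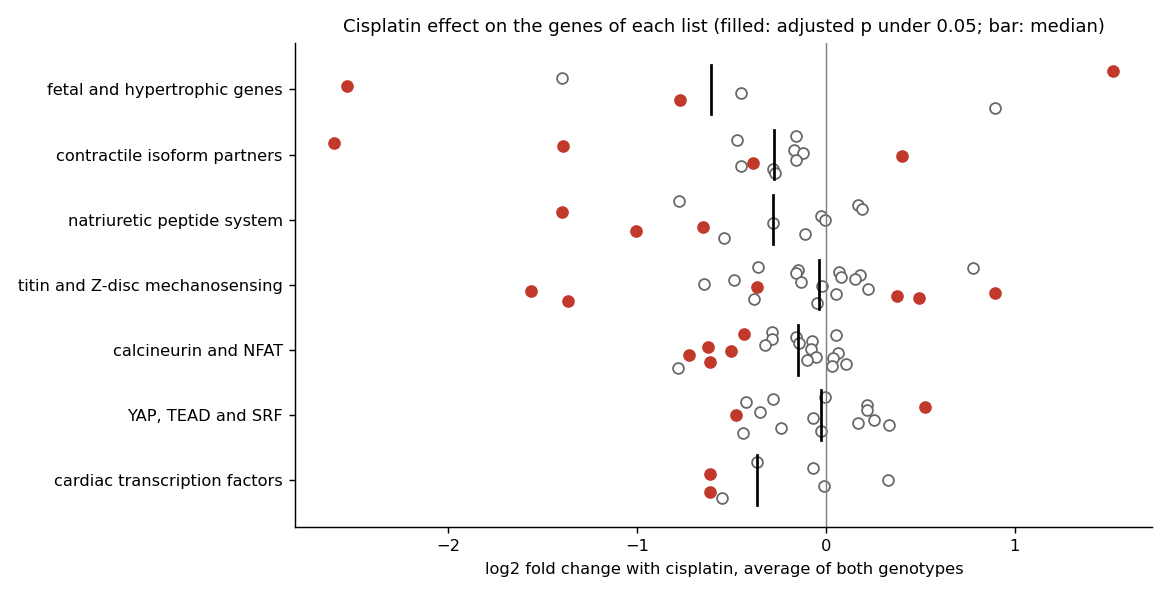
Log2 fold change with cisplatin, averaged over both genotypes, for each gene of the 7 lists, with filled points at a limma adjusted p under 0.05 and a bar at the list median. The 6 fetal and hypertrophic genes run from -2.54 for Nppb to 1.52 for Myh7, and the most negative point is Actc1 at -2.60.

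**Figure D5:**
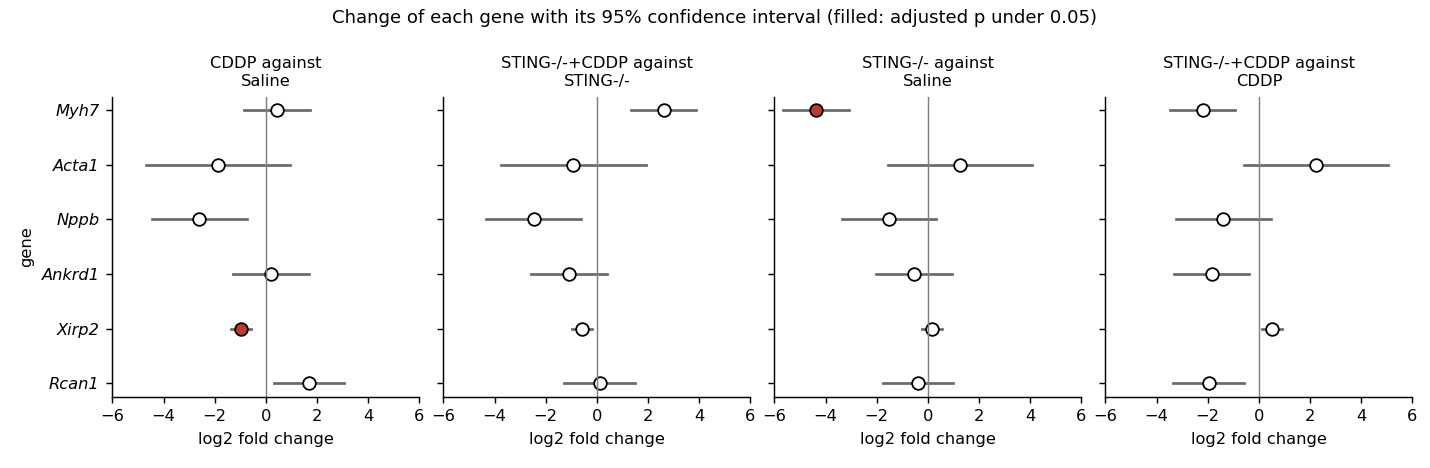
Log2 fold change with its 95% confidence interval for the 6 genes in 4 comparisons, with filled points at a limma adjusted p under 0.05. Filled are Xirp2 in CDDP against Saline, -0.96, and Myh7 in STING-/- against Saline, -4.37, and the intervals of Acta1 are the widest.

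Markers of other cell types also differed between these hearts. In the cisplatin average 3 of 5 fibroblast markers fell, Col3a1 (-2.79, SE 0.35), Col1a1 (-1.89, SE 0.35) and Lum (-1.51, SE 0.34), and so did 3 of 5 endothelial markers, led by Kdr (-0.80, SE 0.25), 2 of 5 smooth muscle markers, Acta2 and Smtn (-0.85, SE 0.18), and all 5 red blood cell markers, led by Hbb-bt (-4.04, SE 0.56). Dcn, the most abundant fibroblast marker, was between 516 and 1366 TPM in Saline and between 920.3 and 1967 TPM in CDDP hearts. Pecam1, the most abundant endothelial marker, was between 136 and 191 TPM in Saline and between 138 and 204 TPM in CDDP hearts. The summed TPM of fibroblast markers was 877, 1833 and 776 in Saline and 962, 1151 and 2047 in CDDP hearts, and that of endothelial markers 499, 451 and 439 in Saline and 286, 294 and 381 in CDDP hearts. In STING-/- and STING-/-+CDDP hearts the fibroblast sums ran from 887 to 1347 and from 644 to 1487, and the endothelial sums from 289.7 to 408 and from 262 to 403. Red blood cell markers summed to 6815, 4146 and 9317 TPM in Saline, 1271, 141 and 41.9 in CDDP, 1266, 1465 and 264 in STING-/- and 101, 81.9 and 311 in STING-/-+CDDP hearts, with Hbb-bs the most abundant. Of all tested genes 7.28% rose and 12.6% fell in the cisplatin average. Of 4 fat markers tested 1 rose in it, Cidea (0.56, SE 0.12). Of the 4 changes 2 were below 0, and the list median was 0.13. In STING-/- against Saline all 4 fat markers had changes above 0, with a median of 1.94, and 0 passed. Of 10 cardiomyocyte markers Tnnt2 rose and Actc1 and Nkx2-5 fell in the cisplatin average, with a list median of -0.30. The part of these cell types in the values of the 6 genes was not tested.

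Each of the 6 genes had its own nearest neighbours among 8704 tested genes with a mean of at least 5 TPM, by the Pearson correlation of log2(TPM + 1) over the 12 hearts. Those of Xirp2 were Lrba (r = 0.978), Kif16b (0.978) and Oxsm (0.976), and those of Rcan1 Gadd45a (0.977), Itga7 (0.945) and Ptpn2 (0.938). Nppb was closest to Znrf1 (0.928), Oaz1 (0.879) and Snrpf (0.878), and Acta1 to Ccn5 (0.922), St3gal4 (0.876) and Pi16 (0.864). Near Ankrd1 were Gpaa1 (0.883) and the immediate-early gene Atf3 (0.880), and Myh7 was closest to Sirt2 (0.884), Serhl (0.840) and Gm45315 (0.837). No gene named here was near more than a single member. These values are descriptions: the points are the same 12 hearts, they share their groups and scaling, and the highest of many correlations is high by selection. CDDP replicate 1 was the highest heart for Rcan1, for Ankrd1 and for Atf3, the last at 66.9 TPM against 2.93 to 29.7 in the other hearts.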

How the data were processed

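Groups came from the genotype and treatment in the labels. The authors deposited TPM per gene for 12 hearts. Per the labels' processing notes, fastp, HISAT and RSEM were used with GRCm38.p5; tool versions are not given in the sources used here, and the depth per heart is unknown. From the deposited TPM, log2(TPM + 1) was taken, genes reaching a TPM of 1 in 3 or more hearts were kept (13815), and limma 3.58.1 (R 4.3.3) was fitted with a mean per group and an eBayes trend on 8 residual degrees of freedom. Tests were two-sided with Benjamini-Hochberg adjustment and a threshold of 0.05. The fit was tested on simulated data, whose outcome is not reported here. Shares, in percent of summed TPM, were compared by exact permutation tests. Gene positions came from GENCODE M21 and promoter windows from RefSeq. Their starts can differ: the Ankrd1 window lies inside the gene span given here, and the Nppb window runs into it. Figures were drawn with matplotlib 3.10.9. The authors' group mean columns were not used.

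The 6 genes, the gene lists and the markers were chosen with earlier results of these data known. Named are the 6 genes, up to 4 genes of each list with the largest changes among those that passed in a comparison, the isoforms and paralogs of the 6, and their 3 nearest genes, less some genes that are not reported here. Other genes with values (Corin, Npr1, Csrp3, Ankrd23, Hspb7, Nexn, Ccn2, Dcn, Pecam1, Fosb, Tnni1, Tnni2, Mylpf, Mybpc2, Gm20388, Atf3, Hbb-bs, Bmp10, Mhrt and the fast myosins) were chosen after their values were seen. Settings varied were the pseudocount (0.1), the filter (none, or a TPM of 5), the scaling (median of ratios, quantile, mitochondrially encoded genes removed), the trend, arrayWeights, the samples fitted, a replicate block, an atrial covariate, the log2 ratio in place of a share, and the hearts, each left out in turn.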

Additional observations from a re-analysis of the deposited data

How the results depend on the processing

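Precision rests on 3 hearts a group, since TPM hide the read depth, and genotype cannot be told apart from supplier. Beside counts of genes, 443 values kept their direction and their side of the threshold under alternatives other than leaving out a heart, 10 gained a call, 4 lost one and 5 reversed. With a heart left out the numbers were 596, 8, 21 and 23. For the shares the threshold was set on the unadjusted permutation p. Share tests of 3 hearts against 3, or with 1 of these left out, cannot go below 0.1, so they could not gain or lose a call. Of the 21 lost calls 8 were the Myh7 share with cisplatin over both genotypes, whose exact permutation test had an adjusted p of 0.36. The cause of each change below was not tested. In CDDP against Saline 2610 genes passed, and 822 when only those groups were fitted. In STING-/-+CDDP against STING-/- 129 passed, and 46 without a filter, 204 with only those groups, 242 with the median of ratios, 297 with quantile normalization and 613 with arrayWeights. In STING-/- against Saline 10 passed, and 4 without a filter, 29 with arrayWeights and 6 with the atrial covariate. In STING-/-+CDDP against CDDP 168 passed, and 12 without a filter, 38 with only those groups, 668 with the median of ratios, 312 without mitochondrially encoded genes, 671 with quantile normalization and 321 with the atrial covariate. The genotype average had 25 genes, and 10 without a filter, 45 with the filter at 5, 61 with the median of ratios, 69 with quantile normalization, 92 with arrayWeights and 153 with the atrial covariate. The interaction had 1 gene, and 4, 3, 2 and 2 with the median of ratios, quantile normalization, arrayWeights and the atrial covariate. Fitting only the groups compared could not be applied to the averages and the interaction.

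With each heart left out in turn, the genes that passed numbered 1241 to 2548 in CDDP against Saline, 15 to 203 in STING-/-+CDDP against STING-/-, 1887 to 2653 in the cisplatin average, 3 to 14 in STING-/- against Saline, 11 to 388 in STING-/-+CDDP against CDDP, 10 to 52 in the genotype average and 1 to 15 in the interaction. Changes of sign occurred in CDDP against Saline for Myh7 (-0.023 to 0.879) and Ankrd1 (-0.693 to 0.763), in STING-/-+CDDP against STING-/- for Rcan1 (-0.033 to 0.221), in STING-/- against Saline for Ankrd1 (-0.913 to 0.013) and Xirp2 (-0.009 to 0.250), and in the interaction for Acta1 (-0.770 to 2.254) and Nppb (-0.692 to 1.018). The Myh7 share moved by 2.60 to 6.01 percentage points with cisplatin over both genotypes and lost its unadjusted call without 8 of the 12 hearts. The Acta1 share moved by -0.214 to 6.32 points in STING-/-+CDDP against STING-/-, by -8.83 to 2.22 in STING-/-+CDDP against CDDP and by -2.24 to 3.28 between genotypes. The Nppb share moved by -1.81 to 8.35 points in STING-/-+CDDP against STING-/- and by -2.50 to 7.66 in STING-/-+CDDP against CDDP. None of these changes of the 6 genes had a limma adjusted p under 0.05, and no adjusted p was computed for the shares with a heart left out. The unadjusted exact permutation p of the Myh7 share with cisplatin over both genotypes ran from 0.02 to 0.15. Under other settings, Ankrd1 in CDDP against Saline was -0.008 with arrayWeights and -0.089 with the atrial covariate, and Rcan1 in STING-/-+CDDP against STING-/- was -0.056 with the latter. As log2 ratios, the Acta1 share was 0.845 in STING-/-+CDDP against CDDP (-2.80 points as a share) and the Nppb share -0.0181 in STING-/-+CDDP against STING-/- (3.93 points).

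Without a filter, Myh7 lost its call in the cisplatin average (adjusted p = 0.0686), in STING-/- against Saline (adjusted p = 0.176) and in the genotype average (adjusted p = 0.0628), all by limma. Myh7 in STING-/-+CDDP against STING-/- passed with arrayWeights (limma adjusted p = 0.0268) and without Saline replicate 1, CDDP replicate 1 or STING-/-+CDDP replicate 1 (limma adjusted p = 0.0499, 0.0474 and 0.0340). Xirp2 passed there with arrayWeights (limma adjusted p = 0.0362) and in STING-/-+CDDP against CDDP with quantile normalization (limma adjusted p = 0.0482). Rcan1 in CDDP against Saline passed without CDDP replicate 2 (limma adjusted p = 0.0476) or 3 (limma adjusted p = 0.0424). Hearts of the same replicate number did not deviate together (correlations from -0.333 to 0.261), so the numbers were not taken as pairs. A replicate block gave 5 genes in STING-/- against Saline and 67 in STING-/-+CDDP against CDDP, and a limma adjusted p of 0.0390 for Myh7 in STING-/-+CDDP against STING-/-.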
